A study of Mus musculus with 6 samples.

Results

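The small leucine-rich proteoglycans are secreted matrix proteins, and the 10 genes described here (Dcn, Bgn, Aspn, Fmod, Lum, Prelp, Kera, Omd, Epyc and Ogn) were taken as a named list from the 19938 mouse genes measured. Each of the 10 had a single probe set on the array, and that probe set carried 1 gene symbol. The transcripts came from mouse bone marrow cells that were sorted, after the tissue had been dissociated, as negative for the leukocyte marker CD45 and the red cell lineage marker Ter119 and positive for CD73, a surface enzyme that makes adenosine. CD73+CD105+ cells (n = 3 samples) carried CD105, or endoglin, a co-receptor for ligands of the TGF-beta family, and CD73+CD105- cells (n = 3 samples) did not; the labels name no strain, age, allele or treatment. The study concerns the engraftment of marrow stroma, and this comparison asks which transcripts separate its CD105+ and CD105- fractions. The labels call samples of a group biological replicates and do not say that they came from separate animals, so every p-value given here rests on sample-to-sample spread, which may be technical.

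Proteins of this family have a small core built of leucine-rich repeats, and most carry chondroitin sulfate, dermatan sulfate or keratan sulfate chains. They bind collagen fibrils and set how thick the fibrils grow and how they are spaced, and several also bind growth factors such as TGF-beta. In the skeleton they mark the matrix of bone, tendon, cartilage and periosteum. The canonical members fall into class I (Dcn, Bgn and Aspn), class II (Fmod, Lum, Prelp, Kera and Omd) and class III (Epyc and Ogn). Most lie in clusters of neighbours in the mouse genome: Dcn, Lum, Kera and Epyc on chromosome 10, Aspn, Omd and Ogn on chromosome 13, and Prelp and Fmod on chromosome 1, with Bgn apart on chromosome X.

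Upstream sequences of 4 members are printed because they stand for the patterns described next: Aspn and Ogn are neighbours with higher values in CD73+CD105+ cells, Epyc had a lower value, and Bgn had nearly equal values. They are the 250 bases before the annotated start of each gene, 5′ to 3′, from RefSeq on GRCm38.p6; the table of upstream sequences matched 8 of the 10 members.
Aspn, chr13:49544193-49544442, plus strand: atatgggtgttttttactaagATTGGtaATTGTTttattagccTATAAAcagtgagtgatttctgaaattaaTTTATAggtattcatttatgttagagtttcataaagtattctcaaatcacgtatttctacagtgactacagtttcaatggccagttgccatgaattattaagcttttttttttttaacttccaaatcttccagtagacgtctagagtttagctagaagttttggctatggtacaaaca
Ogn, chr13:49607765-49608014, plus strand: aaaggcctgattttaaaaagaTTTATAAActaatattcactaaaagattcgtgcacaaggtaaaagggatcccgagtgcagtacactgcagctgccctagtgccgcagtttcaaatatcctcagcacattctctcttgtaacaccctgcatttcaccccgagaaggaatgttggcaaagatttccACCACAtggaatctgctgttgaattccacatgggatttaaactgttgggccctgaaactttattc
Epyc, chr10:97643818-97644067, plus strand: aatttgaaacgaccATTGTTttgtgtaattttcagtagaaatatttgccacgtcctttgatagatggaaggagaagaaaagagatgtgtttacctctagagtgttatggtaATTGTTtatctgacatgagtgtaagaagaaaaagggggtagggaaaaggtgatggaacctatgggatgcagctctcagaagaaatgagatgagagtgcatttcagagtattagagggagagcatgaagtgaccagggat
Bgn, chrX:73483351-73483600, plus strand: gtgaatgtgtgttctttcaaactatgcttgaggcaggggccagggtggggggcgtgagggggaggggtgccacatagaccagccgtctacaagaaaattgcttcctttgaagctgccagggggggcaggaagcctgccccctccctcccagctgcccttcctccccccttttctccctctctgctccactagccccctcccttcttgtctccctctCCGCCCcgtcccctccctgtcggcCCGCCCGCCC
Capitals mark every match, on either strand, to 7 motifs: the TATA box (TATAAA), the GC box (GGGCGG), the CCAAT box (CCAAT), a SOX motif (AACAAT), a RUNX motif (TGTGGT), an AP-1 motif (TGACTCA) and the E-box CATCTG, known as a target of scleraxis. Bases are counted back from -1, the base before the start. Epyc held 2 SOX matches, from -236 to -231 and from -139 to -134, and 9.42% of all 32851 upstream windows of this length held at least 1. Windows not printed here, of Kera, of Prelp and at a second start of Epyc, also held SOX matches. Aspn held 1 SOX match, 2 TATAAA matches (found in 12.4% of windows) and 1 CCAAT match (33.8%). Ogn held 2 overlapping TATAAA matches on opposite strands and 1 RUNX match (14.0% of windows). Bgn held 3 GC boxes, of which 2 overlapped, at its start (32.7% of windows). The AP-1 motif (4.46%) and the E-box (14.4%) had no match in these 4 windows. A match describes these letters only and is not evidence of binding.

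Values are on the log2 scale, 1 per probe set and array. The arrays had medians between 6.27 and 6.35, and the highest single value was 13.90. As a mark of dim signal, 1190 odorant and vomeronasal receptor genes, which marrow is not thought to use, had a 95th percentile of 6.01. All 10 members lay above it in every array, between 10.28 and 13.15. Eng, which encodes CD105, averaged 8.06 ± 0.25 in CD73+CD105+ cells and 6.30 ± 0.21 in CD73+CD105- cells (SD, n = 3 each; limma adjusted p = 0.00322). Nt5e, which encodes CD73, averaged 10.37 ± 0.08 in CD73+CD105+ cells and 10.63 ± 0.12 in CD73+CD105- cells (SD, n = 3 each; limma adjusted p = 0.183). None of 5 leukocyte or 3 erythroid markers passed in limma, while 2 leukocyte and 0 erythroid markers had an unadjusted p under 0.05, both of them higher in CD73+CD105+ cells. Over the 6 arrays 4 and 2 of these lists averaged below the receptor gene percentile. The mean of the replicate 1 arrays lay unusually close to that of the rest. Over all genes the mean of both differed from the mean of the other 4 with an SD of 0.0423, while the 8 other pairings of a CD73+CD105+ with a CD73+CD105- array gave 0.122 or more. For the 10 members that gap was at most 0.0562. No label describes this balance, so differences are also given from a fit with a term for replicate 1 and from replicates 2 and 3 alone. The term left the difference of every member as it was and raised its SE.

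All 10 proteoglycan genes were strongly detected in both populations, and none passed the test between CD73+CD105+ and CD73+CD105- cells at a Benjamini-Hochberg adjusted p under 0.05 in limma, where 1.82% of all genes did. The differences fell into 3 patterns. Aspn, Lum, Omd, Kera and Ogn had higher means in CD73+CD105+ cells, by 1.21-fold to 1.35-fold, each with a 95% interval above 0. Epyc had a lower mean, at 0.795 times the CD73+CD105- value, with an interval below 0. Bgn, Fmod, Dcn and Prelp had intervals that included 0. At an unadjusted p under 0.05 there were thus 6 members, against 17.7% of all genes, and of these 5 were higher and 1 lower, while 8.58% of all genes were higher and 9.09% lower by that rule. With the term for replicate 1 only Aspn and Lum had an unadjusted p under 0.05 among the members (0.0106 and 0.026), and with replicates 2 and 3 alone only Omd did (0.046). The difference was above 0 in 6 of the 10 members and in 44.4% of all genes, below 0 in 4 members and in 55.6% of all genes, and its median was 0.18 over the members and -0.02 over all genes. Differences are given in log2 units, and a positive one means a higher value in CD73+CD105+ cells. In bulk samples, fewer cells of a type and less RNA per cell cannot be told apart.

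Among class I, asporin separated the populations most clearly. Aspn, which binds collagen and TGF-beta and is known from periosteum and periodontal ligament, stood at 12.40, 12.17 and 12.43 in CD73+CD105+ replicates 1, 2 and 3, against 11.92, 11.84 and 12.05 in CD73+CD105- replicates 1, 2 and 3. Every CD73+CD105+ array lay above every CD73+CD105- array. The difference of 0.40 (SE 0.10, 95% interval 0.17 to 0.62) was 1.32-fold and had the lowest adjusted p of the members (0.0988 in limma). That value was 0.235 with the term for replicate 1 and 0.0278 with array weights, the one alternative of 15 in which any member passed.

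Decorin and biglycan, the other class I genes, hardly differed. Dcn, the main dermatan sulfate proteoglycan of fibrous tissue and a TGF-beta binder, stood at 13.14, 13.10 and 13.15 in CD73+CD105+ cells, against 13.04, 13.06 and 13.03 in CD73+CD105- cells. The groups did not overlap, but the difference was 0.08 (SE 0.06, 95% interval -0.06 to 0.23, adjusted p = 0.535 in limma). Whether that interval included 0 depended on the limma prior. With a trend and robust prior the Dcn SE was 0.03 and the interval 0.02 to 0.15 (limma adjusted p = 0.195). Non-overlapping groups were found for 4 of the 10 members (Dcn, Lum, Omd and Aspn), all higher in CD73+CD105+ cells. Over all genes 23.7% had groups that did not overlap, 10.7% in that direction. Bgn, a bone and tendon proteoglycan that can also signal through Toll-like receptors, stood at 12.55, 12.54 and 12.52 in CD73+CD105+ cells, against 12.52, 12.56 and 12.53 in CD73+CD105- cells. Its arrays were interleaved, and the 95% interval of the ratio between the groups ran from 0.905 to 1.10. In this fit Dcn and Bgn therefore had intervals that left room for a difference of at most 1.17-fold in either population. The upper limit of the Dcn interval was 0.23 here, 0.28 with the term for replicate 1 and 0.33 with replicates 2 and 3 alone. Dcn and Bgn stood near the top of arrays whose highest value was 13.90, and whether the scale had room for a difference there was not tested. The same limit applies to Fmod and Prelp, described below, whose group means lay between 12.44 and 12.54.

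**Figure D1:**
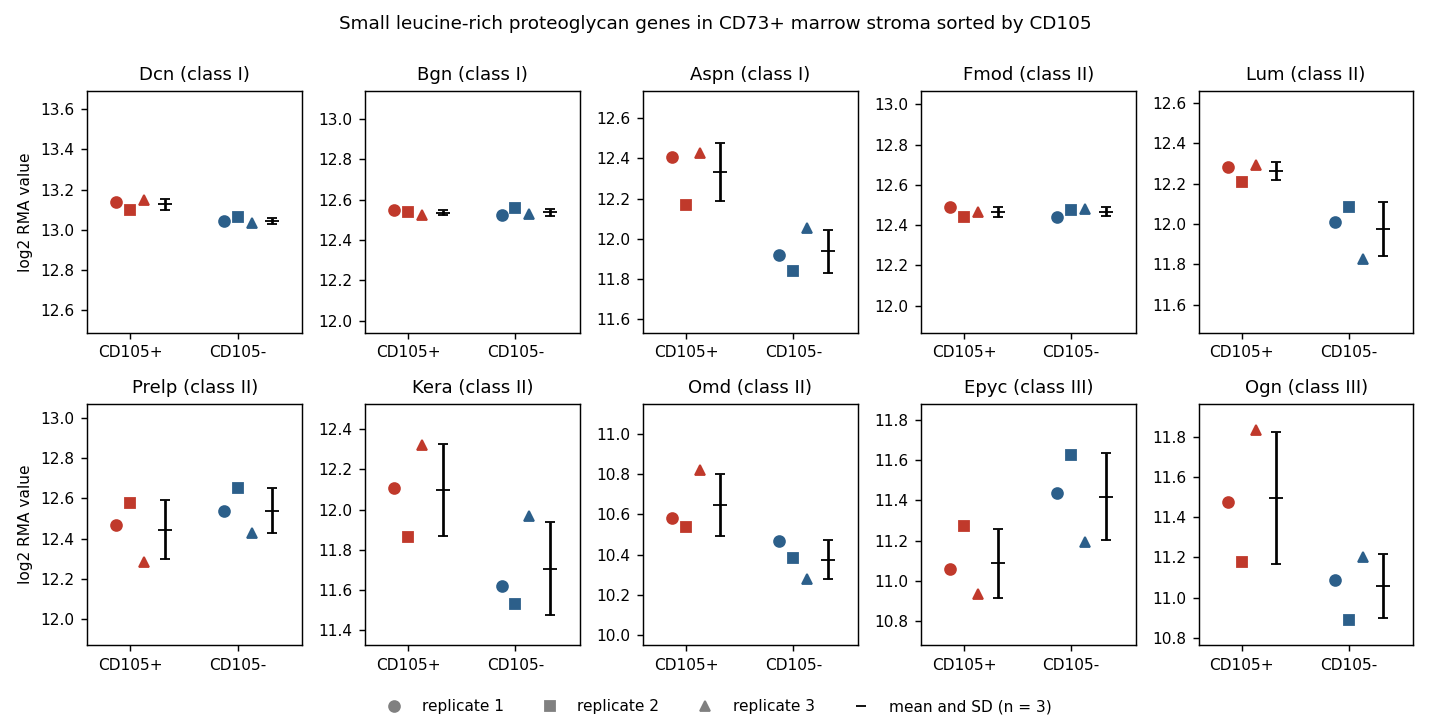
Log2 RMA value of each of the 10 genes in each array (every panel spans 1.2 log2 units), with CD73+CD105+ arrays left in red, CD73+CD105- arrays right in blue, symbols for replicate numbers, and the mean ± SD (n = 3) in black. Dcn, Aspn, Lum and Omd have groups that do not overlap, Bgn and Fmod lie on top of each other, and Epyc has the lower mean in CD73+CD105+ cells.

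Of the 5 class II genes, 3 had higher means in CD73+CD105+ cells. Lum, lumican, a keratan sulfate proteoglycan of cornea and skin that also coats fibrils in other connective tissue, stood at 12.28, 12.21 and 12.29 in CD73+CD105+ cells, against 12.01, 12.09 and 11.83 in CD73+CD105- cells. The groups were separate, with a tight CD73+CD105+ group and a low replicate 3 among the CD73+CD105- arrays. The difference was 0.29 (SE 0.09, 95% interval 0.09 to 0.49, adjusted p = 0.149 in limma).

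Omd, osteomodulin (also osteoadherin), a keratan sulfate proteoglycan of mineralised matrix, stood at 10.58, 10.54 and 10.82 in CD73+CD105+ cells, against 10.47, 10.38 and 10.28 in CD73+CD105- cells. CD73+CD105+ replicates 1 and 2 lay close above the highest CD73+CD105- array, and replicate 3 stood higher. The difference was 0.27 (SE 0.10, 95% interval 0.04 to 0.50, adjusted p = 0.218 in limma).

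Kera, keratocan, best known from the cornea and also present in tendon, stood at 12.11, 11.87 and 12.32 in CD73+CD105+ cells, against 11.62, 11.53 and 11.97 in CD73+CD105- cells. CD73+CD105- replicate 3 lay above CD73+CD105+ replicate 2, so the groups overlapped. The difference of 0.39 (SE 0.15, 95% interval 0.03 to 0.75) was close to that of Aspn, but the spread within each group was larger (SD 0.23 in both) and the adjusted p was 0.247 in limma.

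The neighbours Fmod and Prelp did not separate. Fmod, fibromodulin, which regulates fibril growth in tendon, stood at 12.49, 12.44 and 12.46 in CD73+CD105+ cells, against 12.44, 12.48 and 12.48 in CD73+CD105- cells, and its ratio had a 95% interval of 0.904 to 1.11. Prelp, a proteoglycan with a basic, heparin-binding end that anchors basement membrane to collagen, stood at 12.47, 12.58 and 12.29 in CD73+CD105+ cells, against 12.54, 12.65 and 12.43 in CD73+CD105- cells. Its difference was -0.10 (SE 0.10, 95% interval -0.33 to 0.14, adjusted p = 0.668 in limma), and the spread among CD73+CD105+ arrays was larger than that. Leaving out replicate 3 or 2 of the CD73+CD105+ arrays gave Prelp differences of -0.017 and -0.16 in turn. Leaving out replicate 2 or 3 of the CD73+CD105- arrays gave -0.038 and -0.15.

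The 2 class III genes had means that differed in opposite directions. Epyc, epiphycan, a dermatan sulfate proteoglycan of growth plate cartilage, stood at 11.06, 11.27 and 10.93 in CD73+CD105+ cells, against 11.44, 11.63 and 11.19 in CD73+CD105- cells. CD73+CD105+ replicate 2 lay above CD73+CD105- replicate 3, which was the only overlap. The difference was -0.33 (SE 0.13, 95% interval -0.64 to -0.02, adjusted p = 0.26 in limma). Ogn, osteoglycin or mimecan, a class III protein of bone and vessel wall matrix, stood at 11.47, 11.18 and 11.84 in CD73+CD105+ cells, against 11.09, 10.89 and 11.20 in CD73+CD105- cells. Its difference was 0.44 (SE 0.17, 95% interval 0.04 to 0.83, adjusted p = 0.244 in limma), and its CD73+CD105+ SD of 0.33 was the largest among the members. Without CD73+CD105+ replicate 3 the Ogn difference was 0.27, below those of Aspn (0.35) and Kera (0.28) in the same arrays. Whether the Epyc and Ogn differences differ from each other was not tested.

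**Figure D2:**
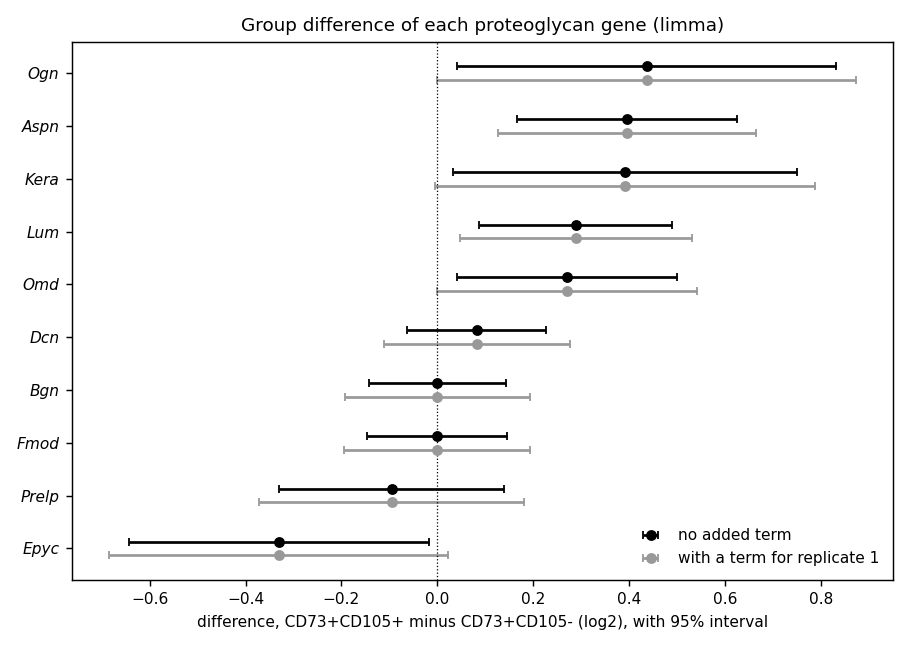
Log2 difference of each gene (positive where CD73+CD105+ cells are higher), with its 95% interval from limma without an added term (black) and with a term for replicate 1 (grey), 3 arrays a group. Without the term 5 intervals lie above 0 and that of Epyc below it, and with the term only those of Aspn and Lum exclude 0.

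By chromosome, all 3 members of the chromosome 13 cluster (Aspn, Omd and Ogn) had differences above 0. So did 3 of 4 in the chromosome 10 cluster, where Epyc at one end was the exception. On chromosome 1, 0 of 2 members lay above 0, and Bgn on chromosome X did not either. Ecm2, a leucine-rich matrix gene next to Aspn that is no member, averaged 11.02 in CD73+CD105+ cells and 10.86 in CD73+CD105- cells (difference 0.16, SE 0.07, limma adjusted p = 0.314). Nol8, the protein-coding gene that follows Ogn, had a difference of -0.12 (SE 0.09, limma adjusted p = 0.539). Btg1, a nearby gene on the Dcn side of the chromosome 10 cluster, had a difference of -0.19, and Atp2b1, nearby on the Epyc side, had -0.24, both with limma adjusted p-values above the threshold (0.342 and 0.188).

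Several members shared their highest or lowest array, but they did not all vary together within a group. CD73+CD105+ replicate 3 had the highest value of all 6 arrays in 6 members (Dcn, Lum, Omd, Kera, Ogn and Aspn) and the lowest in 3 (Bgn, Prelp and Epyc). CD73+CD105- replicate 2 had the highest value in those same 3 and the lowest in Kera, Ogn and Aspn. CD73+CD105- replicate 3 had the lowest value in Dcn, Lum and Omd, but was the highest CD73+CD105- array in Kera, Ogn and Aspn. In 7 of the 10 genes the range within at least 1 group was larger than the difference between the groups.

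Markers of skeletal and other cell types were read from the same arrays. The 7 measured tendon and fibroblast markers all had differences above 0 (median 0.43), but 1 passed in limma, Cd34, which endothelium also expresses. Their mean log2 values were 9.80, 9.65 and 9.94 in CD73+CD105+ replicates 1, 2 and 3. They were 9.23, 9.00 and 9.47 in CD73+CD105- replicates 1, 2 and 3. That is the array order of Aspn, and the means of the pericyte and smooth muscle markers had it too. On the linear scale the tendon and fibroblast markers summed to 10910 to 13629 in CD73+CD105+ cells and 6632 to 10103 in CD73+CD105- cells. The 6 chondrocyte markers all had differences below 0 (median -0.29), with 0 past the threshold in limma and 4 lower at an unadjusted p under 0.05. Their mean log2 values were 11.29, 11.42 and 11.06 in CD73+CD105+ replicates 1, 2 and 3, against 11.55, 11.69 and 11.50 in CD73+CD105- replicates 1, 2 and 3. Their summed level was 18646 to 22618 in CD73+CD105+ cells and 23204 to 26048 in CD73+CD105- cells. Epyc, a cartilage gene, had the chondrocyte order except that CD73+CD105+ replicate 2 stood above CD73+CD105- replicate 3. All 6 endothelial markers rose in CD73+CD105+ cells (summed level 2337 to 3113, against 292 to 381 in CD73+CD105- cells), and 5 of 6 reticular stroma markers did (3416 to 4150, against 1653 to 2320). In CD73+CD105- cells 4 of the 6 endothelial markers (Pecam1, Emcn, Kdr and Tek) averaged below the receptor gene percentile. No marker of the tendon and fibroblast, chondrocyte and reticular stroma lists averaged below it in either population. The 5 osteoblast lineage markers summed to 7887 to 10872 in CD73+CD105+ cells and 8171 to 10038 in CD73+CD105- cells. The 6 pericyte and smooth muscle markers summed to 1823 to 2385 and 1429 to 1769 in the same order. Of these 6, 2 passed in limma, both higher: Rgs5 (difference 1.72, limma adjusted p = 0.024) and Abcc9 (0.66, limma adjusted p = 0.0128). At an unadjusted p under 0.05 in limma 3 were higher and 1 was lower, Cspg4 (-0.47, limma adjusted p = 0.0634). Of the osteoblast lineage markers 0 passed in limma, and at an unadjusted p under 0.05 0 were higher and 1 was lower. That was Sp7 (difference -0.35, limma adjusted p = 0.098). None of the 4 skeletal muscle markers passed in limma, and their sums were 836 to 1039 in CD73+CD105+ cells and 929 to 1060 in CD73+CD105- cells. The part of any of these cell types in the proteoglycan differences was not tested.

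**Figure D3:**
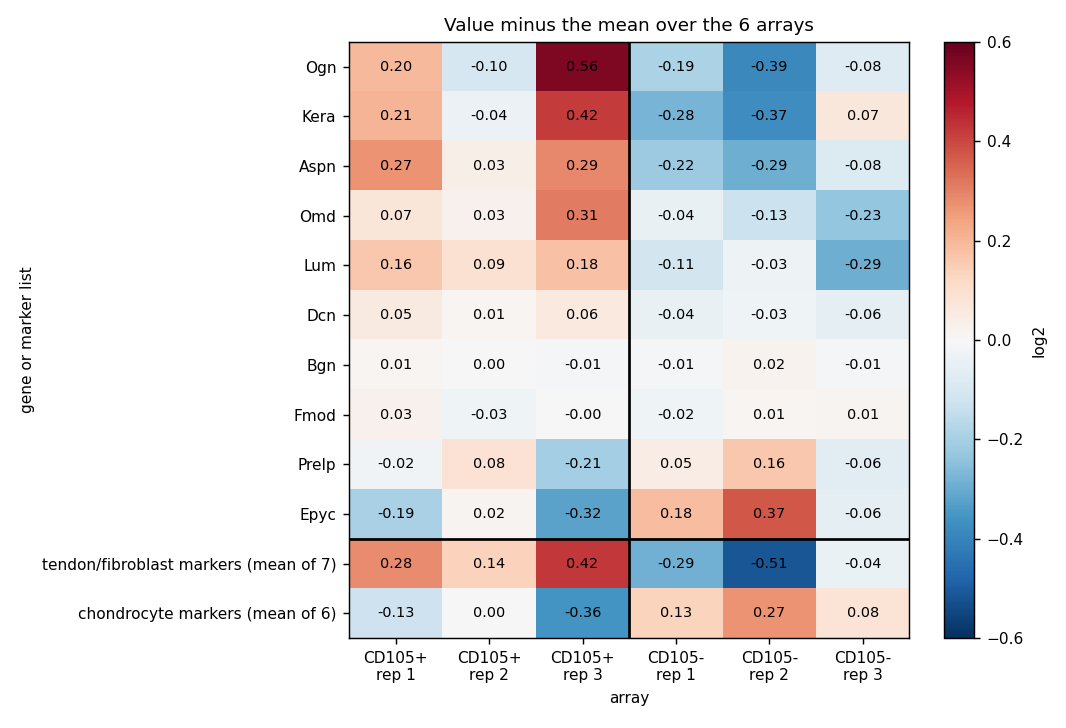
Value of each gene, and of the mean of the tendon and fibroblast markers and of the chondrocyte markers, minus its mean over the 6 arrays (log2, red above and blue below), with CD73+CD105+ arrays left of the line. CD73+CD105+ replicate 3 is highest in Ogn, Kera, Aspn and the tendon and fibroblast markers and lowest in Epyc and the chondrocyte markers.

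For each member, the 2 non-member genes most alike across the 6 arrays were sought among 11961 genes above the receptor gene percentile, by Pearson's r, as a description. Aspn was nearest to Tmem47 and Add2, Kera to Matn2, a matrilin of the matrix, and Cysltr1, and Ogn to Aimp2 and Dag1. Epyc was nearest to Bzw2 and to Btg1. Over all members these 20 nearest genes had r between 0.985 and 0.999. With 6 arrays such values are common: between 126 and 644 genes had r above 0.9 with a given member.

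The genes that surround these proteoglycans in their pathway were read from 6 lists with 85 measured genes, of which 3 rose and 1 fell in limma, against 1.82% called among all genes. Counts at an unadjusted p under 0.05 in these lists stand beside 8.58% of all genes higher and 9.09% lower in CD73+CD105+ cells. With the term for replicate 1, and with replicates 2 and 3 alone, 0 of the 85 passed in limma. None of 7 other leucine-rich family genes passed, 2 of them higher at an unadjusted p under 0.05 (list median 0.13). Podn, podocan, had a difference of 0.53 (SE 0.16, limma adjusted p = 0.16), and Chadl, a chondroadherin-like gene, -0.51 (SE 0.25, limma adjusted p = 0.349). Without CD73+CD105- replicate 2 the Podn difference was 0.35. Of 14 collagen chains that form or coat fibrils, 0 passed, and 1 was higher and 3 lower at an unadjusted p under 0.05 in limma (median 0.06). Col14a1, a chain on the surface of fibrils, differed by 0.54 (SE 0.30) and Col11a2, a cartilage fibril chain, by -0.43 (SE 0.14), with limma adjusted p-values of 0.408 and 0.171. Leaving out replicate 2 or 3 of the CD73+CD105- arrays gave Col14a1 differences of 0.28 and 0.84 in turn, and leaving out CD73+CD105+ replicate 3 gave 0.34.

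Of 14 receptors and growth factors that bind these proteoglycans, 3 rose and 0 fell (median 0.11). Kdr, a VEGF receptor that decorin is known to bind, averaged 6.98 ± 0.36 in CD73+CD105+ cells and 5.68 ± 0.13 in CD73+CD105- cells (SD, n = 3 each; difference 1.31, limma adjusted p = 0.0182). All 3 CD73+CD105- arrays lay below the receptor gene percentile for Kdr, so no fold is given. Bmp4, a growth factor that biglycan is known to bind, averaged 9.18 ± 0.04 in CD73+CD105+ cells and 8.37 ± 0.20 in CD73+CD105- cells (SD, n = 3 each; 1.75-fold, limma adjusted p = 0.0176). Tlr4, a receptor through which soluble biglycan signals, averaged 8.17 ± 0.27 in CD73+CD105+ cells and 7.38 ± 0.13 in CD73+CD105- cells (SD, n = 3 each; 1.73-fold, limma adjusted p = 0.0444). These moved beside the endothelial markers, of which Kdr is one, and the part of endothelial RNA in them was not tested. With the term for replicate 1 the limma adjusted p was 0.052 for Kdr, 0.0508 for Bmp4 and 0.114 for Tlr4, and with arrays centred on their medians Tlr4 had 0.0582. Kdr also lost the call without CD73+CD105+ replicate 1 (0.0616), CD73+CD105- replicate 1 (0.0741) or CD73+CD105- replicate 2 (0.0616), and Bmp4 without CD73+CD105+ replicate 1 (0.0688) or 3 (0.0647). Tlr4 kept it only when CD73+CD105+ replicate 2 was the array left out, with limma adjusted p-values of 0.0637 to 0.159 without any of the other 5.

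Of 22 genes that build the linkage region and the chondroitin or dermatan sulfate chains, 0 rose and 1 fell (median -0.15). It was Pxylp1, the phosphatase that removes phosphate from the linkage xylose, which averaged 7.81 ± 0.14 in CD73+CD105+ cells and 8.54 ± 0.19 in CD73+CD105- cells (SD, n = 3 each; difference -0.73, limma adjusted p = 0.0334). That p was 0.0924 with the term for replicate 1 and 0.0582 with arrays centred on their medians, and the call held without CD73+CD105- replicate 1 but was lost without any of the other 5 arrays (0.0707 to 0.108). Chst11, a chondroitin 4-sulfotransferase of cartilage, differed by -0.62 (SE 0.22, limma adjusted p = 0.215), and by -0.40 without CD73+CD105+ replicate 3. In all, 17 of the 22 differences lay below 0, against 55.6% of all genes. At an unadjusted p under 0.05 in limma 1 gene was higher and 9 were lower. The higher gene was Chst14, a dermatan 4-sulfotransferase (0.55, SE 0.13, limma adjusted p = 0.0877). Dse and Dsel, the dermatan sulfate epimerase genes, differed by 0.08 (SE 0.14) and 0.17 (SE 0.15). The list pools both chain types, so its counts do not describe dermatan sulfate synthesis alone. None of 15 genes of keratan sulfate synthesis, sulfate supply and tyrosine sulfation passed, and 1 was higher and 3 lower at an unadjusted p under 0.05 in limma (median -0.04). The largest differences there were those of Slc26a2, a sulfate transporter (-0.51, SE 0.18, limma adjusted p = 0.207), and Papss2, which makes the sulfate donor (-0.40, SE 0.15, limma adjusted p = 0.246). Without CD73+CD105+ replicate 3 the Papss2 difference was -0.24. None of 13 proteases that process or cleave these core proteins or their matrix passed, 7 of them higher and 0 lower at an unadjusted p under 0.05 in limma, and 12 of the 13 differences lay above 0 (median 0.27), against 44.4% of all genes. Tll1, a tolloid protease, differed by 0.50 (SE 0.23) and the stromelysin Mmp3 by 0.47 (SE 0.13), with limma adjusted p-values of 0.316 and 0.127.

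**Figure D4:**
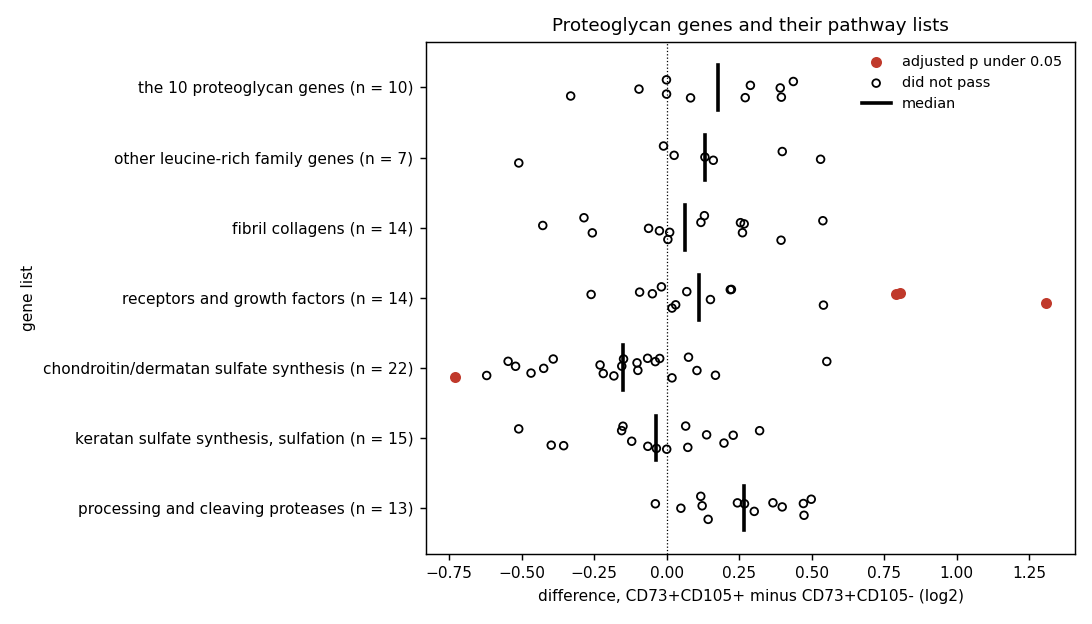
Log2 difference of each gene (positive where CD73+CD105+ cells are higher), for the 10 proteoglycan genes and the 6 pathway lists, with filled red points for genes that passed in limma, open points for the rest and a bar at each list's median. The 10 members hold no filled point, the receptor and growth factor list holds 3 to the right, and the chondroitin and dermatan sulfate list holds 1 to the left.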

How the data were processed

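Biotin-labelled total RNA of 6 sorted samples was measured on 1 array each, per the labels. The authors processed the arrays with RMA into the deposited log2 values, per the submitters' processing notes; the version used and the build were not given in the sources used here. The platform annotation gave exactly 1 gene symbol for 21789 of 35556 probe sets, and the brightest such probe set on average stood for each of 19938 genes. Two-sided tests used lmFit and eBayes of limma 3.58.1 in R 4.3.3 on all 6 arrays without a block, adjusted by Benjamini-Hochberg over all 19938 genes at a threshold of 0.05; the procedure was tested on simulated data. The number of arrays limits the precision (median SE 0.0928). The members, gene lists and naming rule (all members, up to 4 genes past the threshold per pathway list and, in lists where fewer than 2 passed, also the 2 with the largest differences) were chosen with earlier results of these data known. The replicate numbers were not treated as pairs. Deviations of same-numbered arrays from their group means correlated at -0.883, 0.00659 and 0.104 for replicates 1, 2 and 3. The first value follows from the balance of the replicate 1 arrays, so it cannot decide whether the numbers mark pairs. Alternatives covered scaling, weights, filters, the limma prior, left-out arrays and terms for replicate. No scanner files were used here, so no detection calls were available.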

Additional observations from a re-analysis of the deposited data

How the results depend on the processing

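Over 15 alternatives, 8 of the 10 members kept the sign of their difference in every one; the exceptions were Bgn and Fmod, whose differences were near 0. Bgn turned to 0.012 with arrays centred on their medians, 0.00793 with array weights, and ran from -0.00721 to 0.00959 when 1 array was left out, above 0 without CD73+CD105- replicate 2 (0.00959) or without the third CD73+CD105+ array (0.00609). Fmod turned to 0.0115 with centring, 0.0189 with array weights, and ran from -0.0141 to 0.0118 when 1 array was left out, above 0 without replicate 2 of either population (0.0118 for CD73+CD105+, 0.00464 for CD73+CD105-) or without the third CD73+CD105- array (0.00618). Array weights put 1 member (Aspn, adjusted p = 0.0278) and 1331 genes (807 higher, 524 lower) past the threshold in limma, against 0 and 363 (270 higher, 93 lower); the cause was not tested. In the other 14 alternatives 0 members passed in limma, with 1 to 7 at an unadjusted p under 0.05. The count over all genes was 101 (95 higher, 6 lower) with the term for replicate 1 and 29 (28 higher, 1 lower) with replicates 2 and 3 only, which holds fewer arrays. With the replicate block it was 215, of which 25 lower, and 0 members passed. In that fit the limma adjusted p was 0.142 for Aspn and 0.0835 for Pxylp1, which lost its call. The block lowered the SE of Kera (0.152 to 0.095), Epyc (0.133 to 0.094) and Ogn (0.168 to 0.108), with limma adjusted p-values of 0.144, 0.192 and 0.148. It raised the SE of Dcn, Bgn, Fmod, Lum and Omd. Leaving out 1 array gave 86 to 293 genes (80 to 240 higher, 6 to 53 lower), 0 members and a member median of 0.13 to 0.21. The values were 87 and 150 genes without CD73+CD105- replicates 1 and 2, and 86 and 169 without CD73+CD105+ replicates 1 and 3.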

Other observations

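In the log2 ratio of 2 genes in the same array, a shift shared by the whole array cancels. The values had already been processed with RMA, so other effects of scaling between arrays remain. Aspn, Kera and Ogn, the members with the largest differences above 0, were set over Epyc, whose interval lay below 0. These ratios were chosen after the values were seen and were not tested. Dcn, Bgn and Fmod, also genes of fibrous tissue or tendon, hardly differed and were left out. The ratios are therefore no measure of a balance between cartilage and fibrous members. Aspn over Epyc was 1.34, 0.90 and 1.49 in CD73+CD105+ replicates 1, 2 and 3, against 0.48, 0.22 and 0.86 in CD73+CD105- replicates 1, 2 and 3, so the ratio was higher in every CD73+CD105+ array. Kera over Epyc was 1.05, 0.60 and 1.39 in CD73+CD105+ cells, against 0.18, -0.10 and 0.78 in CD73+CD105- cells, where CD73+CD105- replicate 3 overlapped with CD73+CD105+ replicate 2. Ogn over Epyc was 0.41, -0.09 and 0.90 in CD73+CD105+ cells, against -0.35, -0.74 and 0.0086 in CD73+CD105- cells, and CD73+CD105- replicate 3 again lay above CD73+CD105+ replicate 2. The level of a ratio between different probe sets has no meaning of its own.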
